A study of Homo sapiens with 12 samples.

Results

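The 10 immediate early genes described here are FOS, FOSB, FOSL1, FOSL2, JUN, JUNB, JUND, EGR1, ARC and NR4A1. They were chosen by symbol from the 28278 genes of a table of RNA-seq counts, with earlier results of these data known. All 10 were present and passed the filter on low counts in every comparison. The cells were motor neurons derived from the line WA09-Islet1-GFP, wild-type human embryonic stem cells that make GFP together with Islet1, a transcription factor of motor neurons. After differentiation, dissociation and replating, the cultures received cis-chlordane, an organochlorine insecticide, or a matching volume of its solvent DMSO for 16 hours. They were then lifted with trypsin and sorted on GFP. RNA was taken after these steps, and their effect on the levels of these genes was not tested. There were 12 libraries, with 3 replicates each of control GFP-positive, treated GFP-positive, control GFP-negative and treated GFP-negative cells. The labels give a dose of 10 µM, whereas the methods of the study name another concentration, and the titles of the treated libraries also read untreated, which is why the separate treatment label defined the groups. All libraries come from a single cell line, and each replicate is described as an independent thaw.

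Immediate early genes are transcribed within minutes of a stimulus without new protein synthesis. The FOS proteins (FOS, FOSB, FOSL1 and FOSL2) pair with the JUN proteins (JUN, JUNB and JUND) to form the transcription factor AP-1, and FOS proteins cannot form stable pairs with each other, whereas JUN proteins can. EGR1 is a zinc finger transcription factor downstream of the ERK pathway and serum response factor, NR4A1 is an orphan nuclear receptor, and ARC is a cytoskeletal protein that neurons make in response to synaptic activity. In injured neurons, JUN is phosphorylated by JNK and AP-1 activity accompanies both regeneration and cell death.

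Library totals ranged from 23414935 to 38347050 counts. A member had at least 32 counts in any library, the lowest being for FOSB. In control libraries ISL1 stood at 62.4 to 68.6 CPM (counts scaled to library size) in GFP-positive cells and at 2.41 to 2.80 CPM in GFP-negative cells. In treated GFP-positive cells it stood at 8.01 to 15.3 CPM, and the summed level of 10 motor neuron markers was 553 to 874 CPM against 1769 to 2373 CPM in the controls. 1 library stood apart, as control GFP-negative replicate 3 held 3520 CPM of the haemoglobin gene HBB, against 3.97 and 2.73 CPM in the other control GFP-negative libraries. Treated GFP-negative replicates 1 and 3 held 140 and 108 CPM of HBB. Where leaving out control GFP-negative replicate 3 changed the call of a member or moved a count of calls of a list by over 1.5 times, the value without it is given.

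Promoters are shown for FOS, FOSB and JUNB, which rose in GFP-positive cells, and for EGR1, which did not pass the test, as the 250 bases before the RefSeq start on the GRCh38.p14 build. The coordinates are chr14:75278578-75278827 for FOS, chr19:45467746-45467995 for FOSB, chr19:12791236-12791485 for JUNB and chr5:138465229-138465478 for EGR1, all on the plus strand. Capitals mark the core of the cyclic AMP response element (TGACG on either strand, read as CGTCA where it lies on the other strand) and, in EGR1, the CArG boxes to which serum response factor binds.
FOS: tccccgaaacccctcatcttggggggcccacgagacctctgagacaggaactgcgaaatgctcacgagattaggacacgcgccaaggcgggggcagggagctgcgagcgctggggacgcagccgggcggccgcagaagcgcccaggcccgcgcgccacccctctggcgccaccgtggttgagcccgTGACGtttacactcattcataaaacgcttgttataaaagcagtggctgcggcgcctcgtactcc
FOSB: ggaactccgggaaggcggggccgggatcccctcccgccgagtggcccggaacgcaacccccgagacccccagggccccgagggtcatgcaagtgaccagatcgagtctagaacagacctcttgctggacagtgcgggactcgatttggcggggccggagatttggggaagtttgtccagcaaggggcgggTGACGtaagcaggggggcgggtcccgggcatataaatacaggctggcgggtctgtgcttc
JUNB: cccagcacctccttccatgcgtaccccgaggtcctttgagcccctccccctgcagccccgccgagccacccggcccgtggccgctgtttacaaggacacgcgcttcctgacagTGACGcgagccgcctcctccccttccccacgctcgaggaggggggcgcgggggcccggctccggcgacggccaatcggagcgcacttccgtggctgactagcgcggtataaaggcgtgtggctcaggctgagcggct
EGR1: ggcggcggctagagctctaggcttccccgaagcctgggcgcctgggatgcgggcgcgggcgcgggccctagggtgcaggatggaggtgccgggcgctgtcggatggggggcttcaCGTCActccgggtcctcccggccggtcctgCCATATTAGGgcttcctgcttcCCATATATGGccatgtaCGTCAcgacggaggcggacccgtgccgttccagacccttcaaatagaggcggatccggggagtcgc

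RefSeq promoters were at hand for 8 of the 10 members, NR4A1 with 2, which gave 9 windows. The core TGACG, searched on both strands, was present in 7 of the 9 windows, against 21.2% of 35116 promoters of the same length. It was in EGR1, FOS, FOSB, FOSL2, JUN, JUNB and JUND, so in called and uncalled members alike, and in neither window of NR4A1. The whole element TGACGTCA was in JUND alone, against 1.65% of all promoters. The core lay 64 to 60 bases before the start in FOS, 60 to 56 in FOSB and 137 to 133 in JUNB. In EGR1 it lay at 135 to 131 and 66 to 62. CArG boxes were found in EGR1 alone among the 9 windows, 105 to 96 and 83 to 74 bases before the start, against 1.16% of all promoters. The AP-1 site TGANTCA was in 0 of the 9 windows and in 6.57% of all promoters. The EGR site GCGNGGGCG was in the EGR1 window and in 8.41% of all promoters. The windows ranged in GC content from 53.2% to 74.8%, against a median of 58% over all promoters. A match says only that the letters are present. Sites beyond these 250 bases or with other letters were not sought. A missing match therefore does not show that a member lacks such a site.

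In GFP-positive cells FOS, FOSB, FOSL1, FOSL2, JUNB and NR4A1 rose with treatment, and FOSL2 and FOSB rose most. 6 of the 10 members were called higher and 0 lower by edgeR's quasi-likelihood F-test, where a call needs a fold change of 2 or more and an adjusted p below 0.05. Over all 15333 genes tested, 12.8% were called higher and 11.2% lower. The median log2 fold change of the members was 1.18 against 0.03 over all genes. In 7 members all treated libraries exceeded all control libraries, which held for 26.9% of all genes. In bulk RNA, more cells of a kind and more RNA in each cell cannot be told apart.

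FOSL2 encodes FRA-2, a FOS family protein without a strong activation domain. It stood at 4.36, 4.23 and 5.28 CPM in the control GFP-positive libraries and at 84.4, 63.3 and 102 CPM in the treated ones. The groups were far apart, and the lowest treated library exceeded the highest control library many times over. The log2 fold change was 4.24 (SE 0.21) with an adjusted p of 7.0e-18 from edgeR, an 18.9-fold rise.

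FOSB was at 1.38, 1.82 and 1.02 CPM in control GFP-positive cells and at 14.3, 10.6 and 14.4 CPM in treated ones. It was among the lowest members in the controls, and no treated library came near a control library. Its log2 fold change was 3.27 (SE 0.26). FOS itself, the prototype of the family, stood at 30.7, 36.7 and 17.4 CPM in the controls and at 72.7, 75.5 and 44.0 CPM after treatment. Replicate 3 was the lowest in both groups, and the groups did not overlap. The log2 fold change of FOS was 1.25 (SE 0.22). Without control GFP-positive replicate 3 it was 0.99, so FOS no longer reached the fold limit.

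FOSL1 (FRA-1), which is best known from proliferating and invasive cells, stood at 5.85 to 6.05 CPM in control and 11.2 to 13.6 CPM in treated GFP-positive cells. Its log2 fold change was 1.12 (SE 0.21). JUNB, a JUN protein that weakens JUN in many settings, went from 31.0 to 47.0 CPM to 96.3 to 109 CPM, with a log2 fold change of 1.42 (SE 0.18). NR4A1 was at 28.9 to 31.6 CPM in the controls and 67.5 to 94.4 CPM in the treated libraries, with a log2 fold change of 1.47 (SE 0.18). None of these 3 genes overlapped between the groups.

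JUN was higher in every treated GFP-positive library (222 to 313 CPM) than in every control library (178 to 203 CPM). Its log2 fold change of 0.60 (SE 0.16) had an adjusted p of 0.0021 from edgeR but lay under the fold limit, so it was not called. JUND, which is made constitutively in most cells, was the most abundant member on the CPM scale and overlapped between the groups, with a log2 fold change of 0.09 (95% interval -0.24 to 0.42). EGR1 had a log2 fold change of 0.33 (interval -0.13 to 0.79), and its treated libraries spread widely, at 95.7, 137 and 40.1 CPM. ARC had one of 0.34 (interval -0.08 to 0.76). The plot of CPM in each library shows the 10 genes side by side.

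**Figure D1:**
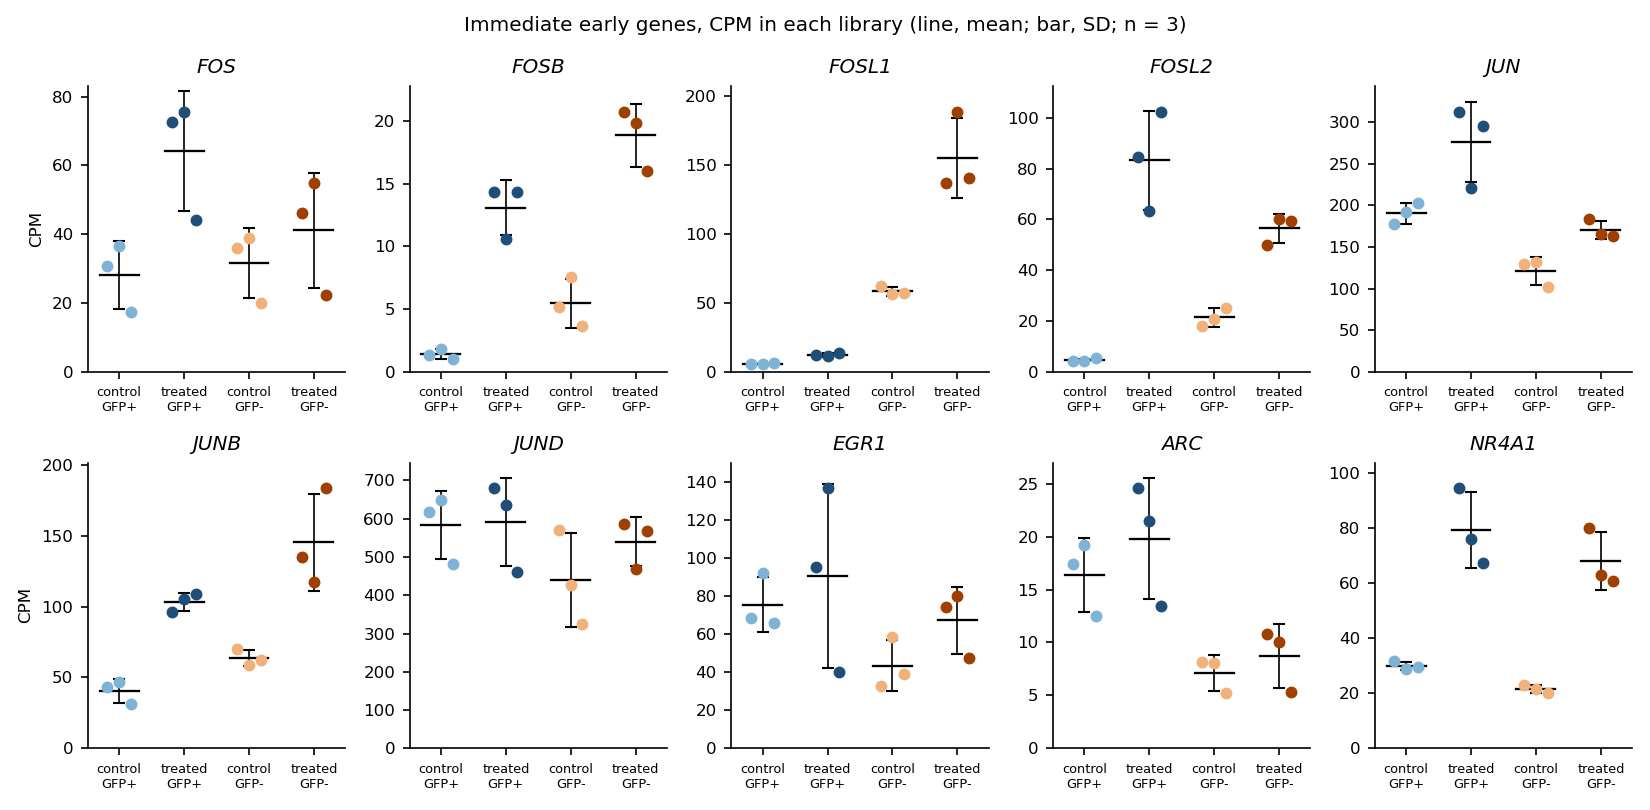
CPM of each of the 10 genes (vertical axes, starting at 0) in the 12 libraries, grouped by treatment and GFP sort fraction, with points for libraries, lines for means and bars for SD (n = 3). FOSL2 in GFP-positive cells goes from 4.23 to 5.28 CPM in the controls to 63.3 to 102 CPM after treatment, whereas JUND overlaps in all groups.

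In GFP-negative cells, FOSB, FOSL1, FOSL2, JUNB and NR4A1 rose with treatment. 5 of the 10 members were called higher and 0 lower, where 8.59% of 15513 genes were called higher and 9.75% lower. The median log2 fold change of the members was 0.89 against -0.01 over all genes. In 6 members the treated libraries lay above all control libraries, which held for 24% of all genes.

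FOSL1 was far more abundant in this fraction, at 62.3, 56.2 and 57.2 CPM in the controls and 137, 188 and 140 CPM in the treated libraries. The 2 groups did not overlap, and the log2 fold change was 1.39 (SE 0.17). NR4A1, the largest change after FOSB, rose by 1.64 (SE 0.18) on the log2 scale, from 21.5 ± 1.45 CPM to 68.0 ± 10.6 CPM (SD, n = 3). FOSB had 5.19, 7.55 and 3.64 CPM in the controls and 20.7, 19.8 and 16.0 CPM after treatment, a log2 fold change of 1.76 (SE 0.28). FOSL2 was at 18.0, 20.9 and 25.2 CPM in the controls and 49.9, 60.2 and 59.5 CPM in the treated libraries, a log2 fold change of 1.38 (SE 0.19).

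JUNB rose by 1.17 (SE 0.19) on the log2 scale, and without treated GFP-negative replicate 3 by 0.96, which is under the fold limit. JUN again moved less, with a log2 fold change of 0.47 (SE 0.16) and an adjusted p of 0.047 from edgeR, and without control GFP-negative replicate 3 it gave 0.36 with an adjusted p of 0.11 from edgeR. FOS overlapped between the groups, at 36.0, 38.8 and 20.1 CPM in the controls and 46.2, 54.8 and 22.4 CPM after treatment, with a log2 fold change of 0.36 (interval -0.32 to 1.03). EGR1 gave 0.61 (interval 0.10 to 1.12, adjusted p 0.10 from edgeR) and ARC 0.27 (interval -0.37 to 0.90). Without control GFP-negative replicate 3, the library with HBB, FOSB gave 1.54, FOSL1 1.37, FOSL2 1.51, JUNB 1.15 and NR4A1 1.59, and these 5 genes were again called. In the same fit FOS gave 0.12, EGR1 0.54 and ARC 0.083, none of them called.

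**Figure D2:**
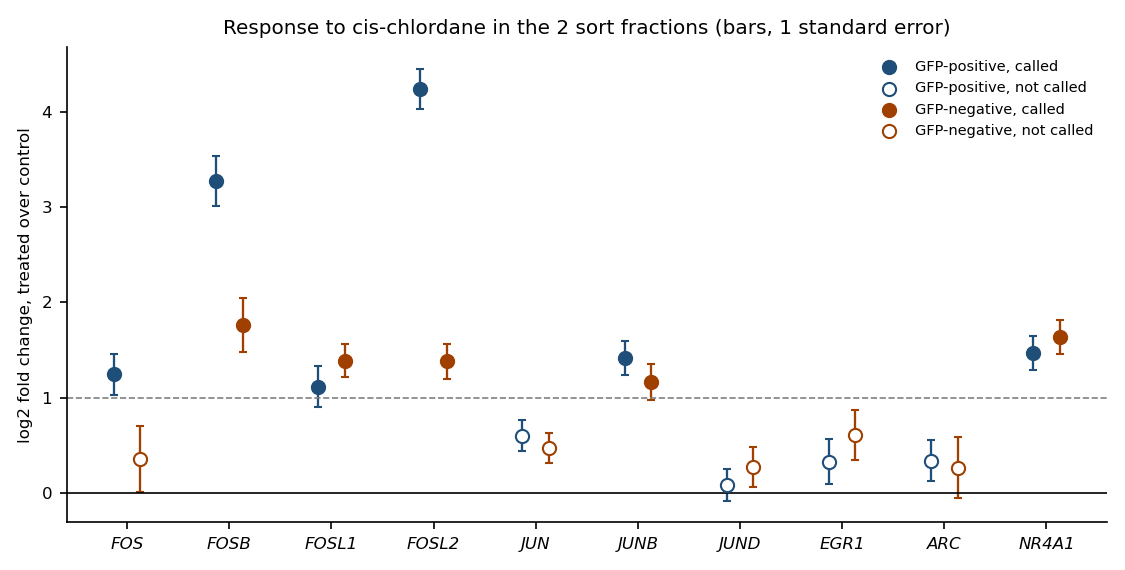
Log2 fold change of treated over control cells for each gene in GFP-positive (blue) and GFP-negative (brown) cells. Bars are 1 standard error, filled points passed the test and the fold limit, and the dashed line marks a log2 fold change of 1. FOSL2 lies at 4.24 in GFP-positive and 1.38 in GFP-negative cells.

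The difference in response between the sort fractions was tested as the interaction of treatment and sort fraction over all 12 libraries. FOSL2 was the one member that passed in the fit without a block, with a log2 difference of 2.77 (SE 0.28) and an adjusted p of 8.2e-05 from edgeR. Over 16226 genes, 2.19% passed at an adjusted p under 0.05. FOSL2 also passed in all 19 alternatives, from 2.63 to 3.04. FOSB differed by 1.42 (SE 0.38) with an adjusted p of 0.067 from edgeR and passed in 6 of the 19 alternatives, one of them the fit without control GFP-negative replicate 3 (1.64). FOS differed by 0.81 (SE 0.48, adjusted p 0.43 from edgeR), and by 1.05 without that library (adjusted p 0.25 from edgeR). FOS was lowest in replicate 3 and highest in replicate 2 in all 4 groups. ARC was also lowest in replicate 3 in all 4 groups, and FOSB, JUND, EGR1 and NR4A1 in 3 of the 4. With a block by culture, which takes the same-numbered fractions as pairs, FOS (0.87, SE 0.19, adjusted p 0.014 from edgeR) and FOSB (1.41, SE 0.27, adjusted p 0.0063 from edgeR) passed beside FOSL2. The interaction of NR4A1 was -0.26 (interval -0.71 to 0.20) and that of JUNB 0.16 (interval -0.35 to 0.67), so these intervals still allow a modest difference in either direction.

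Between the sort fractions of the control cultures, 3 FOS family genes were lower in GFP-positive cells and ARC was higher. The log2 difference of GFP-positive over GFP-negative cells was -3.41 (SE 0.17) for FOSL1, -2.32 (SE 0.22) for FOSL2 and -2.05 (SE 0.35) for FOSB. ARC differed by 1.09 (SE 0.24), from 5.20 to 8.11 CPM in GFP-negative to 12.5 to 19.2 CPM in GFP-positive cells. Of all 15404 genes tested, 7.47% were called higher and 15.3% lower. JUNB was lower by 0.76 on the log2 scale (-0.76, SE 0.18), EGR1 higher by 0.69 (SE 0.22) and JUN by 0.55 (SE 0.14), all with an adjusted p under 0.05 in edgeR but under the fold limit. Without control GFP-negative replicate 3 the difference of ARC was 0.93, and without control GFP-positive replicate 2 it was 0.99, so that ARC was not called in either fit, whereas FOSL1, FOSL2 and FOSB were called without the first of these libraries. Of 28 other immediate early genes, 1 was called higher and 16 lower in control GFP-positive cells, and of 15 AP-1 targets outside neurons 0 were called higher and 10 lower. Without control GFP-negative replicate 3 these counts were 1 and 15, and 0 and 10, but the median of the AP-1 targets moved from -2.64 to -1.43.

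After treatment the order changed for FOSL2. Every treated GFP-positive library held more FOSL2 than every treated GFP-negative library, with a log2 difference of 0.58 (SE 0.18, adjusted p 0.019 from edgeR), under the fold limit. FOSL1 stayed far lower in GFP-positive cells (-3.64, SE 0.19), and ARC higher (1.20, SE 0.29). 1 member was called higher and 1 lower, where 10% of 15416 genes were called higher and 13.7% lower. ARC was no longer called without treated GFP-negative replicate 3 (0.93) or without treated GFP-positive replicate 1 (1.00). FOSB differed by -0.51 (SE 0.20) and JUN by 0.72 (SE 0.16), both under the fold limit.

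To compare levels between genes, CPM was divided by the length in kb of all annotated exons of a gene, overlaps counted once. This length was 7.295 kb for NR4A1, 7.162 kb for FOSL2, 5.553 kb for FOSB, 3.186 kb for FOS and 1.887 kb for FOSL1. Where the transcripts in the cells are shorter, the level comes out too low, so ranks between genes are rough. On this scale JUND was the highest member in all 4 groups, at 302 ± 46.4 (SD, n = 3) in control and 307 ± 59.7 in treated GFP-positive cells. In control GFP-positive cells FOSB was the lowest at 0.254 ± 0.0723 and FOSL2 the next at 0.646 ± 0.0799. In treated GFP-positive cells FOSL2 stood at 11.6 ± 2.72, close to NR4A1 (10.9 ± 1.88), and FOS stood higher at 20.1 ± 5.48, although the highest FOSL2 library (14.3) lay above the lowest FOS library (13.8). Without division by length, the mean of FOSL2 (83.3 CPM) lay above that of FOS (64.1 CPM) in treated GFP-positive cells, with overlapping libraries. Per kb, FOSL1 (82.3 ± 15.3) and JUNB (79.4 ± 18.6) overlapped and followed JUND in treated GFP-negative cells.

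The summed FOS family rose from 12.9 ± 3.03 to 40.6 ± 2.83 CPM per kb in GFP-positive cells and from 44.9 ± 3.65 to 106 ± 19.7 CPM per kb in GFP-negative cells. Its make-up differed between the fractions. FOS itself made up 67.3% ± 9.10 of the family in control GFP-positive cells and 49.2% ± 11.5 in treated ones, while FOSL2 went from 5.32% ± 2.07 to 28.9% ± 8.06. In GFP-negative cells FOSL1 was the main member, at 69.3% ± 4.96 in control and 77.3% ± 3.08 in treated cells, and FOSL2 stood at 6.74% ± 1.72 and 7.54% ± 1.28. In the JUN family, the share of JUNB went from 5.83% ± 0.498 to 13.1% ± 2.47 in GFP-positive cells and from 12.1% ± 2.35 to 19.4% ± 2.99 in GFP-negative cells. These shares depend on the exon lengths used and were not tested.

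**Figure D3:**
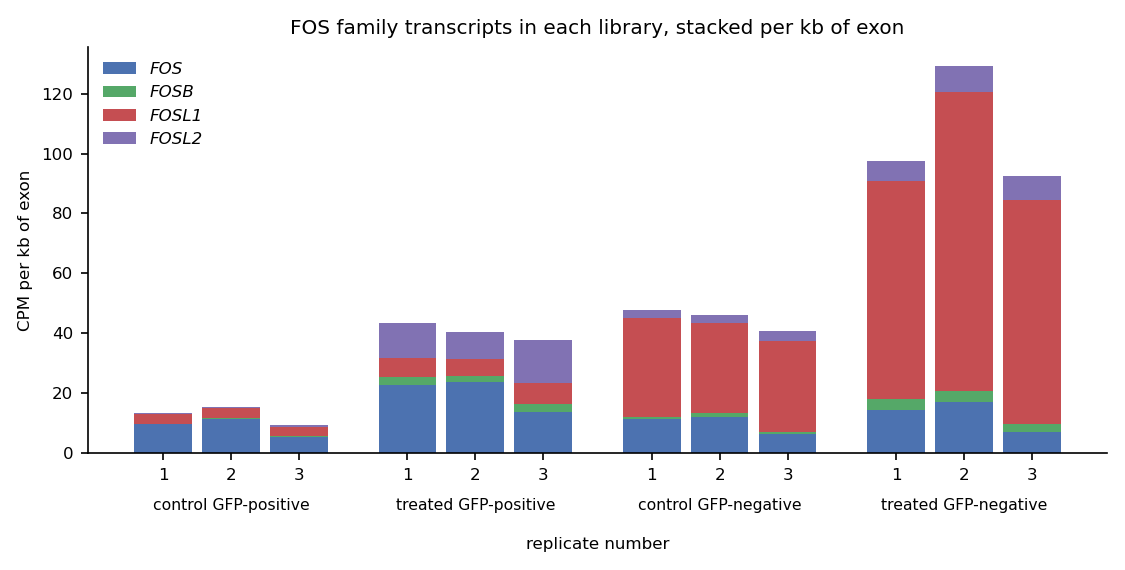
CPM per kb of exon of FOS, FOSB, FOSL1 and FOSL2, stacked for each of the 12 libraries, which are ordered by group and replicate number. FOSL1 fills most of each bar in GFP-negative cells, and FOSL2 is visible as a large part of the bar only in the treated GFP-positive libraries.

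Transcripts of proteins that pair with the members moved in both directions. Of 14 tested AP-1 partners, 6 were called higher and 3 lower in GFP-positive cells and 3 higher and 2 lower in GFP-negative cells. ATF3, a stress-induced partner of JUN, rose by 4.54 (SE 0.19) on the log2 scale in GFP-positive cells, from 15.4 to 19.0 CPM to 318 to 411 CPM, and by 3.64 (SE 0.26) in GFP-negative cells. CREB5 rose by 3.14 (SE 0.21) in GFP-positive cells. MAFA fell by 3.43 and BATF2 by 2.55 on the log2 scale in GFP-positive cells. In GFP-negative cells MAFF rose by 2.31 (SE 0.20) and MAFG by 1.31 (SE 0.20), whereas MAFA fell by 2.27.

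The close relatives of EGR1 and NR4A1, listed together with NAB1 and NAB2, moved in both directions. Of 6 genes of this list tested, 2 were called higher and 2 lower in GFP-positive cells, NAB2 being among the lower. In GFP-negative cells 0 were called in either direction by edgeR. NR4A2, a nuclear receptor of dopaminergic and other neurons, fell by 2.64 on the log2 scale in GFP-positive cells, from 13.7 to 20.4 CPM to 2.18 to 2.81 CPM, and NR4A3 rose by 1.53 (SE 0.30). NAB2, a corepressor of EGR1, fell by 1.19 on the log2 scale. NR4A2 also passed the test of the difference between fractions (-1.80).

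Among 28 other immediate early genes tested, 8 were called higher and 2 lower in GFP-positive cells, and 7 higher and 1 lower in GFP-negative cells. Their median log2 fold change was 0.45 and 0.46. KLF4 rose by 4.18 (SE 0.45) and CEBPB by 3.49 (SE 0.20) in GFP-positive cells, and GADD45B by 3.34 (SE 0.25). CEBPB also rose in GFP-negative cells, by 3.11 (SE 0.31), together with KLF4 (2.57, SE 0.40) and PPP1R15A (2.48, SE 0.19), whereas ID1 fell by 2.88 on the log2 scale.

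Genes that neurons induce on electrical activity were mixed, with 4 of 17 higher and 3 lower in GFP-positive cells and 6 higher and 2 lower in GFP-negative cells. GEM rose by 4.20 (SE 0.33) and PCSK1 by 3.60 (SE 0.23) in GFP-positive cells, and by 2.73 (SE 0.47) and 2.63 (SE 0.27) in GFP-negative cells, whereas RGS4 fell by 1.90 and RGS2 by 1.63 on the log2 scale in GFP-positive cells. BDNF, a neurotrophin, rose by 1.85 (SE 0.30) and VGF by 2.29 (SE 0.18) in GFP-negative cells. In GFP-positive cells BDNF gave 0.92 (SE 0.27) and VGF 0.81 (SE 0.17), both with an adjusted p under 0.05 in edgeR but under the fold limit.

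The kinase cascades and transcription factors upstream of the members were called at shares near or under the background. Of 21 JNK cascade genes, 1 was called higher (MAP3K5, log2 fold change 2.67, SE 0.43) and 1 lower (MAP3K12, -1.20, SE 0.16) in GFP-positive cells and 0 in GFP-negative cells. Of 21 ERK cascade genes, 1 was called higher and 3 lower in GFP-positive cells, and 1 and 1 of 22 in GFP-negative cells. Of 22 regulators around SRF, ELK, CREB and MEF2, 2 were called higher in GFP-positive cells (CAMK2D 1.48, SE 0.18, and ELK3 1.12, SE 0.33) and 1 in GFP-negative cells (ELK3 1.55, SE 0.22), with 0 lower in either. DUSP5, an ERK phosphatase, rose in both fractions, by 1.86 (SE 0.20) and 1.93 (SE 0.19), out of 16 phosphatase and Sprouty-type genes, of which 2 were called higher and 0 lower in GFP-positive and 1 and 1 in GFP-negative cells. Transcript counts do not measure kinase activity. Of the heat shock genes, 1 of 13 was called higher in GFP-positive cells (HSPA6, at 0 to 0.320 CPM in the controls and 1.17 to 2.73 CPM in treated cells).

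Many genes known as AP-1 targets outside neurons rose in both fractions. 10 of 16 were called higher and 0 lower in GFP-positive cells, and 9 of 16 higher and 0 lower in GFP-negative cells, with medians of 1.51 and 1.72. SPP1, the matrix protein osteopontin, rose by 4.19 (SE 0.19) and 4.49 (SE 0.18), PLAU by 2.18 (SE 0.30) and 3.31 (SE 0.26), and MMP1 from 0.112 to 0.448 CPM to 3.32 to 5.14 CPM in GFP-positive cells and from 0.0587 to 0.197 CPM to 25.9 to 65.3 CPM in GFP-negative cells. Of 13 neuronal JUN targets in injury and death, 8 were called higher and 2 lower in GFP-positive cells, and 7 higher and 1 lower in GFP-negative cells. DDIT3, a pro-apoptotic stress factor, rose by 3.62 (SE 0.21) and 3.05 (SE 0.37), and GADD45A by 2.52 (SE 0.19) and 2.57 (SE 0.21), in GFP-positive and GFP-negative cells. ADCYAP1 fell by 2.28 (SE 0.21) and 2.08 (SE 0.34) on the log2 scale in these fractions and was called lower in both. These lists were chosen with results of these libraries known, so their direction is a description. Whether AP-1 or JUN acted on any of these genes here was not tested. ATF3, a gene of the neuronal list, is also counted among the AP-1 partners, and CSRNP1 among the other immediate early genes.

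**Figure D4:**
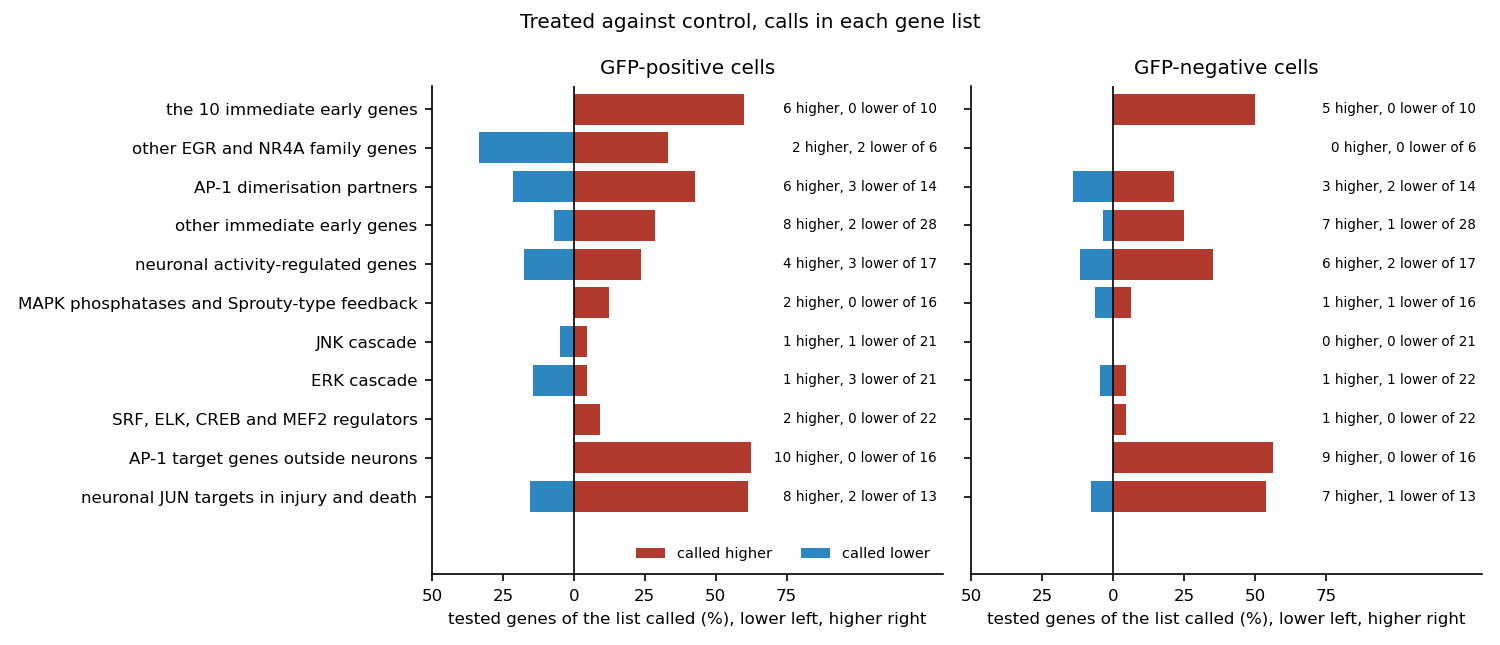
Share of tested genes in each list that was called higher (red, to the right) or lower (blue, to the left) in treated against control cells, with the counts printed beside each bar. The AP-1 targets outside neurons reach 10 of 16 called higher in GFP-positive cells, and the JNK cascade has 1 higher and 1 lower of 21.

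Without control GFP-negative replicate 3, the counts of some lists moved in GFP-negative cells. AP-1 partners had 5 higher and 2 lower of 14, other immediate early genes 9 and 2 of 28, regulators around SRF, ELK, CREB and MEF2 2 and 1 of 22, phosphatase and Sprouty-type genes 1 and 0 of 16, and AP-1 targets outside neurons 11 and 1 of 17, with a median of 2.47 in the last list. KLF2 turned from -1.90 to 1.33 and MMP9 from -0.04 to 2.69 on the log2 scale, and both were called once this library was left out. ATF3 gave 3.52, CEBPB 3.30, KLF4 2.79, SPP1 4.46 and DDIT3 2.93, and all 5 were called in both fits.

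Beside these results, levels of markers of other cell types moved as well. In GFP-positive cells 10 pan-neuronal markers summed to 15502 to 18461 CPM in the controls and 7729 to 9563 CPM after treatment, with 4 of 10 called lower. In GFP-negative cells 10 proliferating-cell markers summed to 1216 to 1341 and 415 to 512 CPM, with 9 of 10 called lower, and 5 of 9 neural progenitor markers were called lower.

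The 10 mesenchymal markers summed to 292 to 363 CPM in control and 63.9 to 100 CPM in treated GFP-positive cells, with 4 of 5 tested called lower, and to 1095 to 1157 and 576 to 907 CPM in GFP-negative cells, with 4 of 9 called lower. The 6 endothelial markers summed to 26.1 to 37.8 CPM in control and 91.0 to 133 CPM in treated GFP-negative cells, where KDR went from 9.42 ± 0.652 to 102 ± 21.7 CPM and 2 of the 6 tested were called lower. The part of these markers in the results was not tested.

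For the 3 members with the widest range of group means, the genes with the most alike pattern over the 12 libraries were sought among 13830 genes, by the mean absolute difference of centred log2 values. For FOSL1 these were FKBP10 (0.177), ITGA5 (0.190) and SERPINH1 (0.197). For FOSL2 they were HK2 (0.234), MX1 (0.273) and EDA2R (0.332), and for FOSB DRAM1 (0.229), PHGDH (0.276) and TNFRSF10B (0.305). HK2, a hexokinase, stood at 7.39 ± 0.574 CPM in control and 109 ± 21.0 CPM in treated GFP-positive cells (SD, n = 3), near the pattern of FOSL2.

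2 members carry a doubt in counting. Exons of JUNB overlap 259 bases of HOOK2 on the opposite strand, and exons of NR4A1 overlap 754 bases of NR4A1AS, and the strand setting of the counting is not given in the sources used here. HOOK2 was at 16.3 to 23.7 CPM over all libraries. On hg38, JUNB lies at chr19:12791486-12793315, NR4A1 at chr12:52022832-52059507, FOSL2 at chr2:28392448-28417317 and FOSB at chr19:45467995-45475179, all on the plus strand, and FOSL1 at chr11:65892049-65900573 on the minus strand.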

How the data were processed

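RNA-seq was analysed from 12 libraries, 3 in each of 4 groups, with groups and replicate numbers taken from the sample labels. The authors mapped single-end reads to hg38 with HISAT2, and featureCounts is named in the submitters' processing notes. The deposited values are raw counts per gene, whole numbers without normalization. Of the per-sample columns, 0 were left unused.

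Counts were scaled by TMM and tested with edgeR 4.0.16 in R 4.3.3 (quasi-likelihood F-test, filterByExpr with a minimum count of 10 and total of 15), and p-values were adjusted by Benjamini-Hochberg across the genes in each fit. A call needed a fold change of 2 or more with an adjusted p below 0.05, and the interaction no fold limit. Levels are CPM with TMM factors over all 12 libraries. Intervals are approximate 95% intervals, from a normal curve and an SE worked back from the F statistic. With so few libraries they are somewhat too narrow and do not replace the test. With 3 libraries a group an exact permutation test cannot go below 0.1, so none was made. P-values measure the spread between these libraries. Depth limits each value by counting error only.

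Alternatives were DESeq2 1.42.0, RLE factors, library size alone, other filters, a replicate block, a fit of all 12 libraries, glmTreat, removal of the trend with GC content and each library left out in turn. The fit was tried on simulated data with a log2 fold change of 2 and the same spread for every gene. For treatment in GFP-positive cells it recovered 200 of 200 changed genes with 5 false calls among 15769 genes. For the interaction it recovered 199 of 200 with 11 false calls among 16098 genes. These runs do not show how smaller changes near the fold limit are recovered. The members and gene lists were chosen with earlier results of these data known. Named from the lists were, per comparison, up to 4 called genes with the largest change and a mean of at least 1 CPM. Values of ISL1, HBB, KDR, KLF2, MMP9 and HOOK2 were chosen after their levels were seen. Positions and exon lengths came from GENCODE release 44 on hg38, and promoters from RefSeq on GRCh38.p14. The results of heat shock genes in GFP-negative cells and of neural crest or Schwann markers are not reported here.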

Additional observations from a re-analysis of the deposited data

Results flagged for a closer look

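FOSL2 was flagged because its response to treatment differed between the sort fractions by a test of the difference itself. The interaction was 2.77 on the log2 scale (SE 0.28, adjusted p 8.2e-05 from edgeR), with log2 fold changes of 4.24 in GFP-positive and 1.38 in GFP-negative cells, and all 3 libraries of each treated group lay above all 3 controls of the same fraction.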

How the results depend on the processing

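The 6 calls in GFP-positive cells and the 5 in GFP-negative cells were also found with DESeq2, library size alone, a replicate block and the GC trend removed. glmTreat, a test against the fold limit itself, left 4 and 2 calls, 3 of the 4 calls between fractions in control cultures and 1 of the 2 in treated cultures. Leaving out 1 library gave 5 to 6, 4 to 5, 3 to 4 and 1 to 2 calls in these 4 comparisons. With the GC trend removed, JUN reached 1.02 between the fractions of treated cultures. For the interaction, 2 members passed with DESeq2, library size alone, at least 10 counts in every library and the GC trend removed, and 1 to 2 with 1 library left out.

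Whether all same-numbered fractions of a culture correlated above a limit of 0.1 depended on the genes used. Over all 16226 genes that passed the filter, same-numbered fractions correlated at 0.075 to 0.225 in control and 0.146 to 0.285 in treated cultures, and 1 of the 6 pairs was under the limit of 0.1. Over 13368 genes with at least 10 counts in every library, a set chosen after those values had been seen, they correlated at 0.159 to 0.544. Each fraction correlated best with its own number in both sets. The first set was the one decided on, so the main interaction fit did not take the numbers as pairs. Missing the limit in 1 of the 6 pairs does not show that the fractions are unpaired. In treated cultures all 3 pairs were over the limit, and the block changed no call of a member there. With a replicate block by culture 3 members passed, FOSL2 at 2.74, FOSB at 1.41 and FOS at 0.87. The treated and control numbers correlated at -0.047 to 0.265 over the 16226 genes, and a replicate block changed no call of a member in those comparisons.

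Members near 0 changed sign. The interaction of ARC was 0.046 with DESeq2, 0.047 with RLE factors, 0.23 with library size alone, 0.15 with at least 10 counts, 0.00073 with the culture block and 0.21 with the GC trend removed, and -0.25 to 0.36 with 1 library left out. With 1 library left out, the interaction ranged from -0.78 to 0.15 for EGR1, -0.029 to 0.18 for JUN, -0.48 to 0.038 for JUND and -0.31 to 0.0073 for NR4A1, and the change in GFP-positive cells from -0.10 to 0.69 for EGR1 and -0.042 to 0.24 for JUND. Scaling moved the medians of all genes: library size alone gave 0.14 in GFP-positive cells (2315 higher and 1397 lower, against 1959 and 1716) and 0.22 between fractions of treated cultures (2230 and 1770, against 1541 and 2117), and the GC trend removed gave 0.15 in control cultures (1734 and 2038, against 1151 and 2355). The interaction gave 157 higher and 198 lower calls, 519 and 745 with the culture block, 406 and 375 with DESeq2, and 266 and 84 with library size alone. The causes were not tested.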
